A study of Mus musculus with 23 samples.

Results

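The genes Cdh2, Cdh4, Cdh6, Cdh11, Cdh13 and Ajap1 were followed through 9 lists of open chromatin from maxillary prominence mesenchyme, the tissue in the mouse embryo from which the upper jaw grows. Their members were regions made by merging peaks of the 9 lists that overlapped by 1 bp or more, and a region belonged to a gene when that gene's body was the nearest of all protein-coding genes, at a distance of 0 inside the body and of at most 100 kb outside it. In all 232 of 118102 regions met this rule: 109 at Cdh13, 66 at Cdh4, 39 at Ajap1, 9 at Cdh2, 5 at Cdh11 and 4 at Cdh6. None lay at equal distance from another gene, and 178 lay inside a gene body. Cdh4 and Ajap1 were chosen because they had many added calls at E12.5, so their calls at that stage are a description here, with no test. All 6 genes were selected with results of these data known.

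Cadherins are calcium-dependent adhesion proteins that join cells by binding cadherins on the neighbouring cell, and catenins tie the classic ones to actin at the adherens junction. Neural crest cells, which supply most facial mesenchyme, exchange cadherins as they leave the neuroepithelium, migrate and condense. Among the classic cadherins, Cdh2 encodes N-cadherin of neural and mesenchymal cells, Cdh4 encodes R-cadherin, first described in retina, Cdh6 encodes K-cadherin of kidney and neural crest, and Cdh11 encodes the mesenchymal OB-cadherin found in osteoblasts. Cdh13 encodes T-cadherin, which is held in the membrane by a lipid anchor and lacks the cytoplasmic tail that binds catenins. Ajap1 encodes a transmembrane protein of adherens junctions and is not itself a cadherin.

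The assay for transposase-accessible chromatin (ATAC-seq) uses a transposase that inserts sequencing adapters into open DNA. Wild-type C57BL/6 embryos were taken at 3 embryonic days, named E10.5, E11.5 and E12.5, all untreated, and the ectoderm was peeled off the dissected prominences after Dispase digestion. There were 3 biological samples and so 3 lists per stage, built from 23 sequencing runs in all. How many embryos made up a sample is not stated, so p-values measure only the spread between these samples, mostly as pooled over genes.

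The E10.5 lists called 13864 to 18645 regions each, the E11.5 lists 5496 to 38163 and the E12.5 lists 18312 to 48768. Regions within 1 kb of a gene boundary made up 39.5% to 42.4% of the E10.5 lists, 30.5% to 75.5% of the E11.5 lists and 16.3% to 30.5% of the E12.5 lists. The numbers at the start of the peak names, whose meaning is not given, were 489 to 596, 227 to 312 and 319 to 600 at the 3 stages. Of 10 facial mesenchyme markers, 1 to 7 had a region within 1 kb of a boundary in a given list, and 3 (Prrx1, Prrx2 and Alx4) had none in any list. Of 10 epithelial markers, 0 to 3 had one in a given list. Neuronal markers had one at 1 to 6 of 9 genes and glial markers at 1 to 5 of 7. Endothelial markers had one at 0 to 4 of 10, blood and immune markers at 0 to 2 of 8 and muscle markers at 0 to 1 of 6. Calls at genes of other cell types were thus in the lists at every stage. These counts did not set facial mesenchyme markers apart from neuronal and glial ones. The only marker with a region in all 9 lists was the glial gene Erbb3.

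RefSeq promoter windows of the GRCm38.p6 build were at hand for 2 of the 6 genes, Cdh6 and Ajap1. They are shown because they differ in both base content and calls: a shared region covered the Cdh6 start and no region overlapped the 250 bases before the Ajap1 start. Both run 5′ to 3′ on the minus strand and end at the base before the start site. The capitals mark in Cdh6 the 153 bases that lie inside the called region, and in Ajap1 the 24 bases of the GC boxes, the letters GGGCGG searched on both strands.
Cdh6, chr15:13173676-13173925: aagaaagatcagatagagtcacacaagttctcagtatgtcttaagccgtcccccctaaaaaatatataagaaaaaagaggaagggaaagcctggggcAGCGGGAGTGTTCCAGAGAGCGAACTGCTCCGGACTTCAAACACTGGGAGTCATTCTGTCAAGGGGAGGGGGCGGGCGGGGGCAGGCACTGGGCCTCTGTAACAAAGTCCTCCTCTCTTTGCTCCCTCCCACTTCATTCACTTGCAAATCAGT
Ajap1, chr4:153482831-153483080: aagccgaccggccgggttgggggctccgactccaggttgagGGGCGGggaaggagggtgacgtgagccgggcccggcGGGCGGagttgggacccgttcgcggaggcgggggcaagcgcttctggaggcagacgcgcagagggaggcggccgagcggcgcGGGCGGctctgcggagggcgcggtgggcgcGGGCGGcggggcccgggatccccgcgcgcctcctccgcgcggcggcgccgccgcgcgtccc
The Ajap1 window was 81.2% G or C and held 43 CpG dinucleotides, more than 99.1% of 21045 RefSeq promoters, whose medians were 55.6% and 10. The Cdh6 window was 51.2% G or C with 6 CpG, more than 37.2% of the promoters. GGGCGG occurred 4 times at Ajap1 and 2 times at Cdh6, and 43.1% of all promoters of this length held it. The E-box CANNTG, which reads the same on both strands, occurred 1 time at Cdh6 and not at Ajap1, against 62.8% of promoters. The other motifs, each searched on both strands, were in neither window: the E-box form CAGGTG (in 17.0% of promoters), the box CCAAT (in 35.6%), the TATA box TATAAA (in 11.7%) and the AP-1 motif TGANTCA (in 6.17%). Every CAGGTG is also a CANNTG. A match to letters is a description and not a binding site.

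Cdh2, Cdh6 and Cdh11 had few regions, and those that several lists shared lay at 1 end of the gene. Cdh2 (chr18:16588877-16809246) had 9 regions, and for 8 of them only 1 list made the call. The exception, chr18:16806818-16809056, was the region of the 6 genes that most lists called: 8 of 9, all but E11.5 sample 1. It reached 2239 bp in width and ended inside the gene's high-coordinate boundary, with its strongest summit 0.652 kb from it. The highest fold over background in the region, a value of the authors' peak caller that ranks peaks within 1 list, was 3.56, 3.38 and 3.75 in the E10.5 lists. It was 6.55 and 4.80 in E11.5 samples 2 and 3, and 4.68, 4.06 and 5.35 in the E12.5 lists. That peak stood above 75.5%, 90.1% and 97.0% of the list's own peaks in the E10.5 lists, above 72.5% and 86.7% in E11.5 samples 2 and 3, and above 94.4%, 99.5% and 99.9% in the E12.5 lists. Ranks in lists of different lengths cannot show whether the region changed between stages. E11.5 sample 1, the shortest list, instead called chr18:16809598-16809806, 0.352 kb past the boundary, with a fold of 4.00. Of the single-list regions of Cdh2, 5 came from E11.5 sample 2.

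Cdh11 (chr8:102632095-102785493) had 5 regions, and 2 neighbouring ones at its high-coordinate boundary carried most calls. The outer one, chr8:102784799-102785933, was called by 7 lists, all 3 at E12.5, all 3 at E11.5 and sample 2 at E10.5. Its highest fold was 2.40 in that E10.5 list, 4.59, 5.41 and 4.83 in the E11.5 lists, and 3.57, 2.80 and 3.67 in the E12.5 lists. That peak stood above 32.4% of the list's own peaks in the E10.5 list. At E11.5 it stood above 33.4%, 57.2% and 87.2%, and at E12.5 above 56.1%, 81.4% and 93.8%. The inner one, chr8:102784089-102784692, was called by 6 lists, 2 at each stage. The other 3 Cdh11 regions were single calls of E11.5 lists. One of them, chr8:102553371-102554081, lay 78.0 kb outside the gene and had a fold of 9.18 in E11.5 sample 2, the highest fold of all 232 regions. The median fold of that list was 4.98, and folds of different lists are not on a common scale.

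Cdh6 (chr15:13028699-13176407) had 4 regions, all inside the gene, and no E12.5 list called any of them. Its shared region, chr15:13173119-13173828, covered the start site of the promoter printed above, and its strongest summit lay 25 bases after that site. It was called by E10.5 samples 2 and 3 with folds of 2.62 and 2.42, and by all 3 E11.5 lists with folds of 3.99, 6.29 and 4.71. Folds of different lists are not on a common scale, and the 3.99 in E11.5 sample 1 stood above only 14.3% of that list's peaks. The 3 E12.5 lists, among them the longest of all, did not call this region. The annotated gene boundary lies 2.76 kb beyond the summit, so the region is not counted as near a boundary. With 4 regions Cdh6 was below the minimum of 5 for the test.

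**Figure D1:**
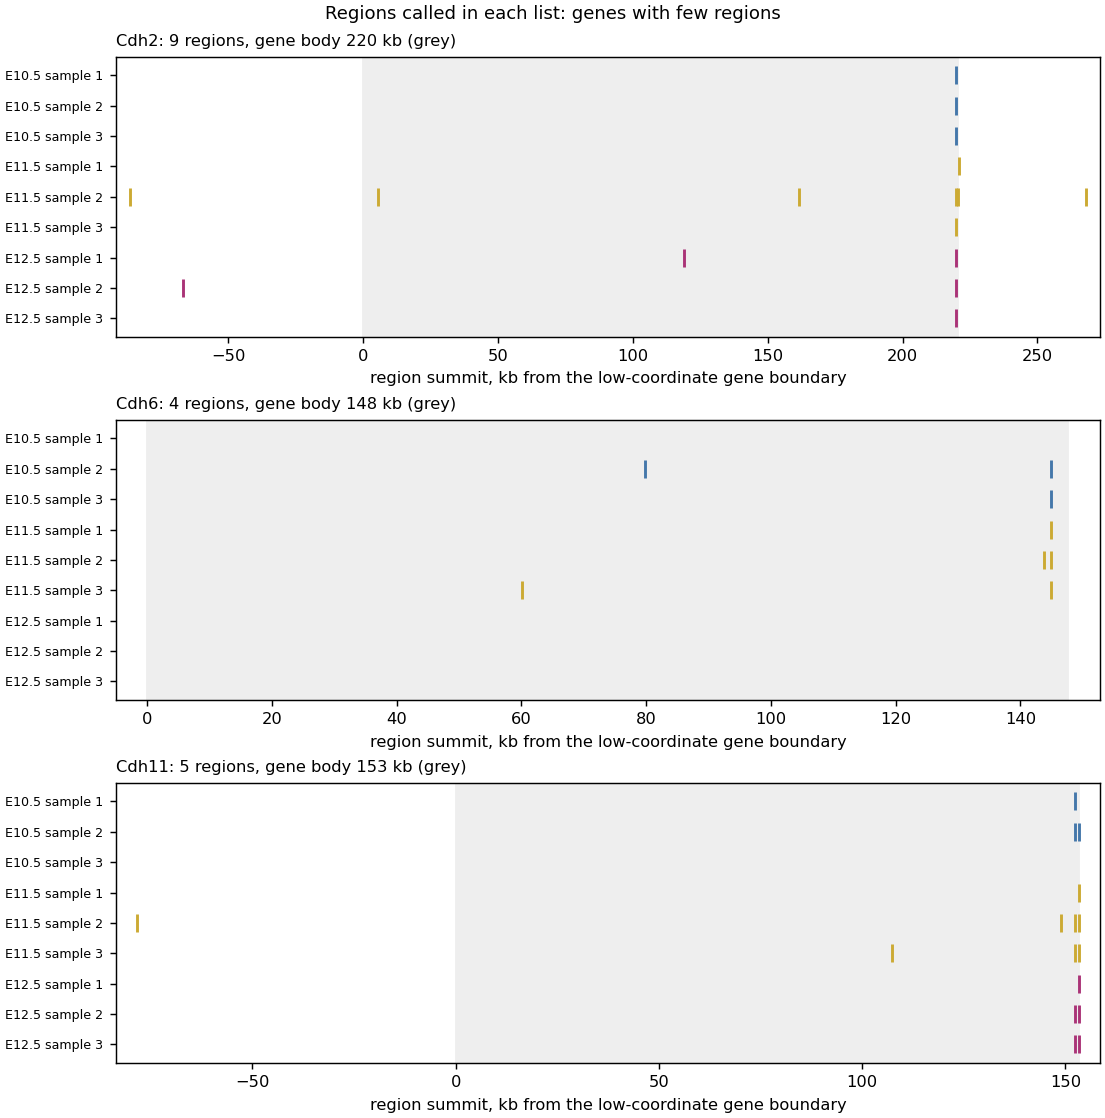
Each tick is a region called in a list, placed by its strongest summit in kb from the low-coordinate boundary of the gene, with the gene body in grey and 1 row per list from E10.5 to E12.5. The shared regions of Cdh2, Cdh6 and Cdh11 line up near the high-coordinate end, with 8, 5 and 7 lists, and Cdh6 has no tick in the E12.5 rows.

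**Figure D2:**
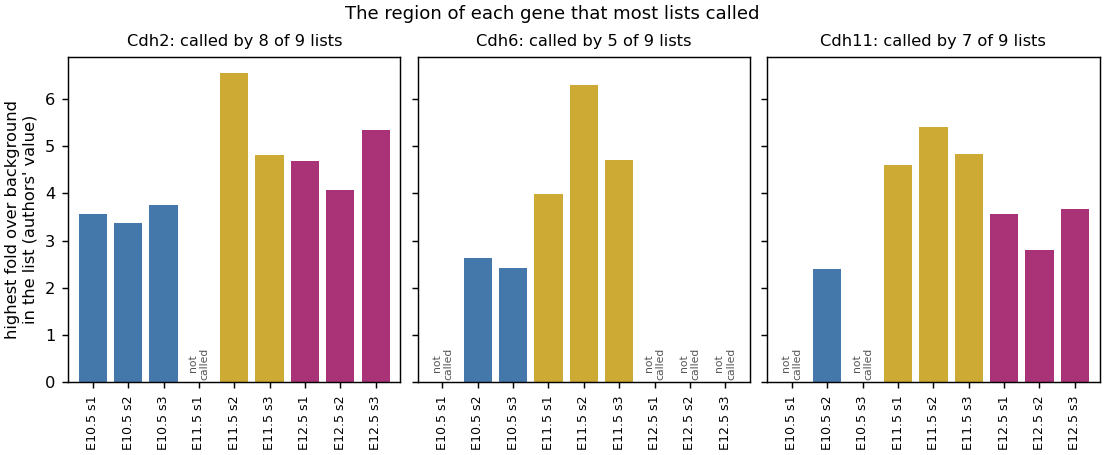
Bars give the authors' highest fold over background in the most widely called region of Cdh2, Cdh6 and Cdh11, list by list, starting at 0. The folds rank peaks within 1 list and are not on a common scale between lists; the missing bars show that Cdh2 lacked a call in 1 list, Cdh6 in 4 and Cdh11 in 2.

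Cdh4, Cdh13 and Ajap1 had many regions spread over long stretches, and no region of theirs was called by more than 4 lists. Cdh4 (chr2:179442423-179899377) had 61 of its 66 regions inside the gene. In 4 equal parts of the body, from low to high coordinates, they numbered 17, 16, 10 and 18, and the longest stretch without one was 27.0 kb. Cdh13 (chr8:118140017-119324929), a gene of 1185 kb, had 94 regions inside it, 20, 16, 27 and 31 in the same parts, and 15 on its low-coordinate side. The low-coordinate boundary of Cdh13 was within 1 kb of 1 region, chr8:118140487-118140958, called by E12.5 samples 2 and 3. Ajap1 (chr4:153373221-153483795), on the minus strand, had only 11 regions inside its 111 kb, against 18 on the high-coordinate side, upstream of its start, and 10 on the downstream side. Of the 18 upstream regions 17 were called at E12.5 and 16 at E12.5 alone. They began 13.6 kb from the gene, and the region nearest to its start was a single call, chr4:153483130-153483351 in E11.5 sample 2, 0.05 kb from the printed window.

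Among 2427 genes with a body of at least 100 kb, the median was 4.20 regions per 100 kb of body, with quartiles of 1.75 and 9.19. Cdh13 had 7.93 per 100 kb, above 69.8% of these genes. Cdh6, Cdh11 and Cdh2 had 2.71, 2.61 and 1.82, above 37.7%, 36.3% and 26.0%. Cdh4 had 13.3 and Ajap1 9.95. E12.5 lists alone called 36 of the 61 body regions of Cdh4 and 7 of the 11 of Ajap1. Both were chosen for added E12.5 calls, so their densities are given without a place among other genes. Cdh13 had the most body regions of the 59 genes whose body is at least 1000 kb, whose median was 13. Of its 94 body regions, E12.5 lists alone called 63, and a single list called 71. Its rank and its density thus rest largely on calls of that stage and of single lists. Cdh12, a classic cadherin gene of 1150 kb and so of nearly the same length, had 7 regions in its body, of which none was called by more than 1 list. Cdh13 and Cdh12, of like length, thus differed in their number of regions. Cdh12 was picked after its values were seen.

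**Figure D3:**
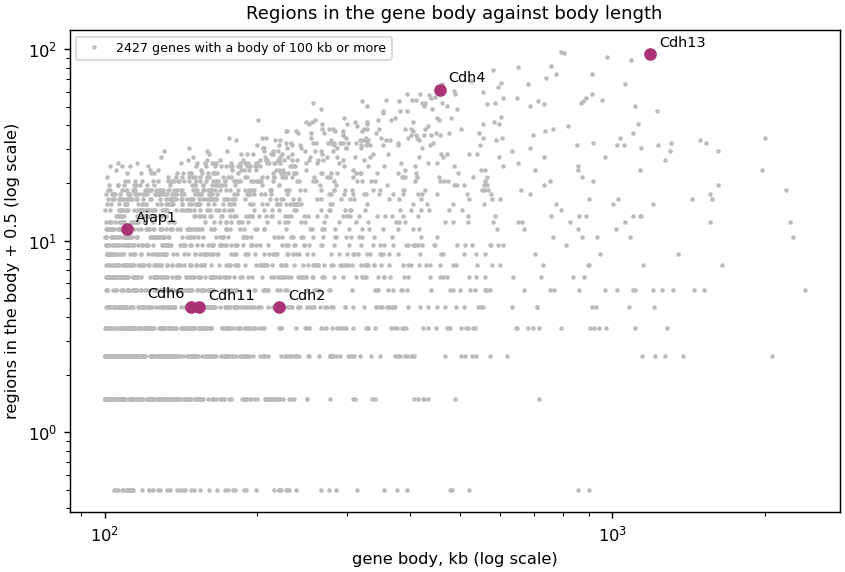
Grey points are the 2427 genes with a body of 100 kb or more, placed by body length in kb and by regions in the body plus 0.5, both on log scales, and the 6 genes are marked. Cdh13 lies near the top for its length, with 94 body regions, 63 of them called by E12.5 lists alone. Cdh2, Cdh6 and Cdh11 have 4 each. Cdh4 has 61, and like Ajap1 it was chosen for added E12.5 calls.

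Most regions rested on 1 list. A single list called 169 of the 232 regions (72.8%), against 68.8% of all regions, and 26 (11.2%) were called by 3 or more lists, against 15.9% of all. No region of the 6 genes was called by all 9 lists, as 1206 regions elsewhere were. Regions near a gene boundary made up 4.74% of the members and 15.7% of all regions. The median width was 191.5 bp, against 195 bp. Single-list regions numbered 83 at Cdh13, 44 at Cdh4, 28 at Ajap1, 8 at Cdh2 and 3 each at Cdh6 and Cdh11. E12.5 sample 2, the longest list, alone called 31 of its 53 regions at Cdh13, 16 of 32 at Cdh4 and 11 of 21 at Ajap1. Of all its regions it alone called 53.2%, so these shares were near that of the whole list. The single-list regions had a median −log10 q of 2.56, and 3 of 169 reached 5. The median of the highest −log10 q per region was 2.93 over the members and 3.10 over all regions. The value for all single-list regions was not computed.

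Calls at E12.5 made up most of the regions of Cdh4, Cdh13 and Ajap1. E12.5 lists alone called 142 of the 232 regions (61.2%), beside 42.7% of all 118102 regions. Without E12.5 sample 2 the numbers were 83 of 173 regions (48.0%), beside 26.6% of all. By gene, E12.5 lists alone called 71 of 109 regions at Cdh13, 39 of 66 at Cdh4, 30 of 39 at Ajap1 and 2 of 9 at Cdh2, and none at Cdh6 or Cdh11. Of these, 2 or more E12.5 lists called 8 at Cdh13, 7 at Cdh4, 9 at Ajap1 and none at Cdh2. Single-list calls thus made up 118 of the 142 regions (83.1%), beside 89.6% of all regions that E12.5 lists alone called. Among 1372 long genes with 10 or more regions, the median share called by E12.5 alone was 44.1%. It was 33.3% in the 343 of these genes with the fewest body regions per 100 kb and 49.1% in the 343 with the most. The share was 65.1% at Cdh13, above 93.8% of these genes, a description because Cdh13 too was selected with results of these data known. It was 76.9% at Ajap1 and 59.1% at Cdh4, which were chosen for added E12.5 calls, so no place among other genes is given for them.

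**Figure D4:**
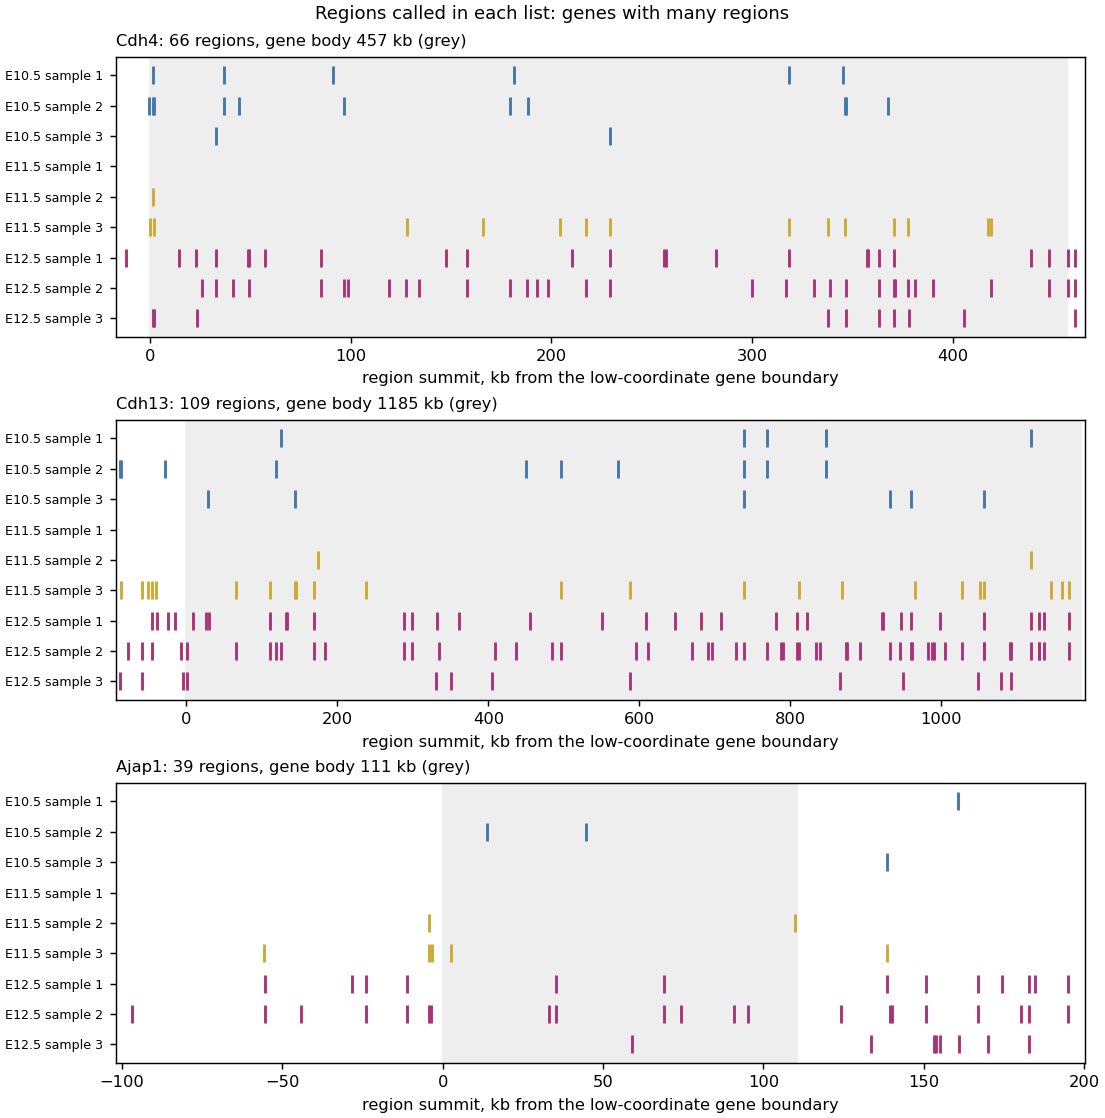
Each tick is a region called in a list, placed by its strongest summit in kb from the low-coordinate boundary, with the gene body in grey and 1 row per list from E10.5 to E12.5. Ticks are scattered along all of Cdh4 and Cdh13 and on both sides of Ajap1, and E11.5 sample 1 has none at these genes.

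At Ajap1 the E10.5 lists called 1, 2 and 1 regions, the E11.5 lists 0, 2 and 5, and the E12.5 lists 13, 21 and 8. Per 10000 regions of the list, that was 0.658, 1.07 and 0.721 for the E10.5 lists, 0, 0.815 and 1.31 for the E11.5 lists, and 5.13, 4.31 and 4.37 for the E12.5 lists. The means were 4.60 ± 0.458 at E12.5, against 0.817 ± 0.223 at E10.5 (SD, n = 3 each). How many other genes separate the stages in this way was not counted. Because longer lists call more regions, calls were also set against those that the length of each list and the sharing of each region imply. All 3 E12.5 lists called more than expected at Ajap1, 13, 21 and 8 against 6.40, 14.5 and 4.13, and all 6 others called fewer.

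Cdh4 was called 6, 11 and 2 times in the E10.5 lists, 0, 1 and 14 times in the E11.5 lists, and 24, 32 and 10 times in the E12.5 lists. The E12.5 values per 10000 regions were 9.47, 6.56 and 5.46, against 3.95, 5.90 and 1.44 at E10.5, so that E12.5 sample 3 lay below E10.5 sample 2. At E11.5 the values were 0, 0.407 and 3.67. Expected calls at E12.5 were 12.2, 26.2 and 8.10, so E12.5 sample 1 stood farthest above its expectation.

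The E10.5 lists called 5, 10 and 6 regions of Cdh13, the E11.5 lists 0, 2 and 23, and the E12.5 lists 34, 53 and 13. Per 10000 regions these were 13.4, 10.9 and 7.10 at E12.5, against 0, 0.815 and 6.03 at E11.5 and 3.29, 5.36 and 4.33 at E10.5. E12.5 sample 3, the lowest of its stage, was close to E11.5 sample 3, the highest of the other 6. Calls above expectation rose at E12.5 relative to E11.5: the difference in standardized residual was 4.87 ± 0.866 (SE; limma, adjusted p = 0.000148 over 7487 genes). In this comparison 3.23% of all genes passed. Cdh13 was selected with results of these data known, so its p-values are not independent evidence. The call held under all 16 alternatives, with adjusted p-values of 5.393e-05 to 0.04528, the latter with only regions called by 2 to 8 lists. Relative to E10.5 the difference was 3.40 ± 0.866 and did not pass (limma, adjusted p = 0.159), in a comparison in which 0.0134% of genes passed. With only regions called by 2 to 8 lists it was 1.23 (limma, adjusted p = 0.5628), and without E12.5 sample 3 it was 4.59 and passed (limma, adjusted p = 0.02857). E11.5 minus E10.5 was -1.48 and did not pass (limma, adjusted p = 0.604), where 0.24% of genes passed. The share of regions near a gene boundary and the numbers in the peak names, given above, also differed between these lists, and their part in the result was not tested.

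The same differences for Cdh4 were 2.30 for E12.5 minus E10.5 and 4.24 for E12.5 minus E11.5, and for Ajap1 3.60 and 4.03, given without a test because these genes were chosen on them. These differences share the E12.5 lists. E11.5 minus E10.5, on which neither was chosen, was -1.95 ± 0.865 for Cdh4 (limma, adjusted p = 0.411) and -0.43 ± 0.824 for Ajap1 (limma, adjusted p = 0.920). Cdh2 and Cdh11 passed in no comparison. For Cdh2, called 1, 1 and 1 times by the E10.5 lists, 1, 6 and 1 times by the E11.5 lists and 2, 2 and 1 times by the E12.5 lists, the differences were -0.02 for E12.5 minus E10.5, -1.77 for E12.5 minus E11.5 and 1.75 for E11.5 minus E10.5 (SE 0.891). For Cdh11, called 1, 2 and 0 times, 1, 4 and 3 times, and 1, 2 and 2 times at the 3 stages, they were 0.12, -1.91 and 2.03 in the same order (SE 0.845). The lowest adjusted p of these 6 tests was 0.212 (limma), which does not show that the stages were alike at so few regions.

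**Figure D5:**
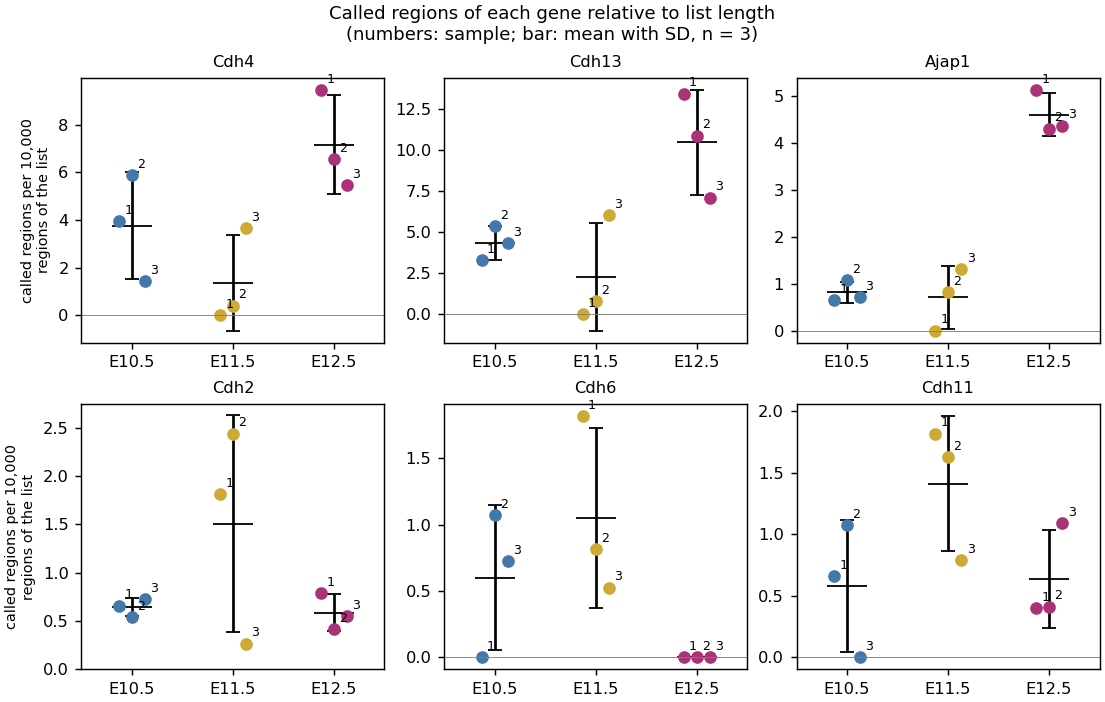
Points are called regions per 10,000 regions of the list for each gene, by stage and numbered by sample, and bars give the mean with SD over 3 lists. At Ajap1, which was chosen for added E12.5 calls, the E12.5 lists lie between 4.31 and 5.13 and the other lists at or below 1.31. How many other genes separate in this way was not counted. Cdh6 is at 0 in all E12.5 lists.

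Some regions were called by every list of 1 stage and none of another, and all such gains lay at Cdh4 and Ajap1. E12.5 against E10.5 gained 4 of 232 member regions (1.72%), beside 0.478% of all regions, and lost none, beside 0.307%. Of these, 3 were at Cdh4. The first, chr2:179805818-179806102 inside the gene, had folds of 3.10, 2.32 and 2.35 in the 3 E12.5 lists and no call elsewhere. The second, chr2:179812911-179813326, lay further along the gene and had folds of 3.58, 2.41 and 2.60 at E12.5, with a further call in E11.5 sample 3. The third Cdh4 region, chr2:179903081-179903347, lay 3.70 kb past the high-coordinate boundary, with folds of 3.90, 2.49 and 2.16. The Ajap1 region, chr4:153556011-153556348, lay 72.2 kb upstream of the gene, with folds of 3.53, 2.09 and 2.61 in the E12.5 lists and no other call. E12.5 against E11.5 gained 3 regions, the same ones without the second Cdh4 region, beside 0.561% of all regions. It lost 1, the start region of Cdh6, beside 1.23% of all. E11.5 against E10.5 gained and lost no member region, beside 0.643% and 0.149% of all. The E12.5 stage was used to choose Cdh4 and Ajap1, so nothing is read from their share.

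Cdh13, with the most regions, had none that all 3 E12.5 lists called. Its 10 regions called by 3 or more lists were all called by E12.5 sample 2, 6 of them by E12.5 sample 1 and none by sample 3. The widest shared, chr8:119196299-119196590, was called by 4 lists, with folds of 4.42 and 2.93 in E12.5 samples 1 and 2, 3.62 in E11.5 sample 3 and 2.78 in E10.5 sample 3. E12.5 samples 1 and 2 shared 11 Cdh13 regions, which is 32.4% of the first list's calls there and 20.8% of the second's, beside 40.6% and 21.1% over all regions. E12.5 samples 1 and 3 shared none of their 34 and 13 calls, beside 17.1% and 23.6% over all regions. Samples 2 and 3 shared 3, which is 5.66% and 23.1% of their calls, beside 17.5% and 46.6% over all regions. At Ajap1 samples 1 and 2 shared 9 regions, 69.2% of the first list's 13 calls and 42.9% of the second's 21. Each shared 1 region with sample 3, the gained region upstream of the gene. At Cdh4 samples 1 and 2 shared 10 regions, 41.7% and 31.2% of their calls. Of the 10 Cdh4 calls of sample 3, 30.0% were shared with sample 1 and 40.0% with sample 2. Over all regions, too, samples 1 and 2 shared the most regions, 10282, against 8530 for samples 2 and 3 and 4325 for samples 1 and 3.

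Other shared regions of these genes were spread over stages. At Cdh4, chr2:179442714-179443570 near the low-coordinate boundary was called by 4 lists, E10.5 samples 1 and 2, E11.5 sample 2 and E12.5 sample 3. A second region of 4 lists, chr2:179671280-179671607, lay inside the gene and was called by 1 list each at E10.5 and E11.5 and by E12.5 samples 1 and 2. At Ajap1, chr4:153368684-153369045, 4.18 kb downstream of the gene, was called by E11.5 samples 2 and 3 with folds of 5.93 and 3.32 and by E12.5 sample 2 with 2.19. Upstream, chr4:153511495-153511957 was called once at each stage.

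The distance limit left few members near it. The farthest Ajap1 region lay 96.8 kb from the gene and the nearest region past the limit 104.7 kb away. For Cdh13 these distances were 88.1 and 100.6 kb, and 23 further regions within 100 kb of Cdh13 were nearer to another gene, as were 21 of Cdh4 and 1 of Cdh6.

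The rest of the adhesion genes were looked at in 5 lists. Of 18 classic cadherin genes, 9 had enough regions for a test. For the E12.5 comparisons 8 of them were tested, since Cdh4 was chosen on that stage, and Cdh20 alone passed, with fewer calls than expected at E12.5 relative to E11.5 (0, 1 and 0 calls at E12.5, against 1, 5 and 2 at E11.5; difference -3.37, limma, adjusted p = 0.012). Of 15 atypical and giant cadherin genes, 12 were tested and Cdh13 alone passed. Of 10 protocadherin genes outside the clusters, 8 were tested, and Pcdh9 had fewer calls at E12.5, 0, 0 and 1, against 1, 6 and 1 at E11.5 (difference -3.46, limma, adjusted p = 0.0183). Most E11.5 calls at Cdh20 and Pcdh9, 5 and 6, came from E11.5 sample 2. Without that list 36 genes passed for E12.5 minus E11.5, against 242 with it, and neither gene was looked at there. None passed among the 13 tested of 19 genes for catenins, nectins and junction adaptors, leaving aside Ajap1, which has no test at E12.5. None of the 7 tested of 8 transcription factor genes that act on cadherin genes passed, among them Snai1, Twist1 and Zeb1. All of these calls were for E12.5 minus E11.5, in which 83 genes passed with more calls and 159 with fewer, and the median differences of the 5 lists were -0.45, 0.66, -0.91, -0.89 and -0.40 in the order given, beside 0.26 over all genes. Leaving aside Cdh4 and Ajap1, which have no test there, no list member passed for E12.5 minus E10.5, and none passed for E11.5 minus E10.5.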

How the data were processed

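Each of the 9 biological samples has 1 deposited peak list in which its sequencing runs were combined, per the labels. The submitters' processing notes name Bowtie2, MACS2, deepTools 3.3.1 and the mm10 build, and the labels state paired-end peak calling and removal of blacklisted regions. Read filters, the transposase shift and the calling threshold are not stated. The deposited lists give for each peak a fold over background (a ratio) and a −log10 p-value and q-value, all computed by the authors' peak caller. Without read counts, depth is unknown and no read-level precision can be given.

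Overlapping peaks (1 bp or more) on the 19 autosomes and chromosome X were merged into regions. Each region went to the protein-coding gene with the nearest body within 100 kb, in a RefSeq annotation of GRCm38.p6 with 21631 such genes. Strand is not in that annotation, so positions are given from the low-coordinate or high-coordinate gene boundary, and exons, introns and untranslated regions were not separated. The calls a list should hold were predicted by a logit (Rasch) model that adds a list term and a region term, given the number of lists that called each region. A standardized residual is calls minus this expectation, over the root of the expected variance. It was tested by limma 3.58.1 in R 4.3.3 for all 7487 genes with at least 5 regions that 1 to 8 lists called, using 1 stage factor for the 9 lists and Benjamini-Hochberg adjustment at 0.05. The prior degrees of freedom were 98.2, so the pooled spread dominates each gene's own.

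Same-numbered samples of different stages did not deviate together (correlations -0.099 to 0.016). Alternatives were a −log10 q of at least 5, equal-length lists, regions called by 2 to 8 lists or by 2 or more, a limit of 20 kb, assignment by summit, 10 or more regions per gene, merging at 100 bp, a replicate block and leaving out each list. Python 3.11.15, NumPy 2.4.6, pandas 2.3.3 and Matplotlib 3.10.9 were used.

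The 6 genes, the gene lists, the cell type markers and the tests were chosen with earlier results of these data known. Single regions were named if the most lists called them, if they were gained or lost, or if they lay over a gene boundary. Members of the gene lists were named if they passed the gene test. Others named were picked after their values were seen.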

Additional observations from a re-analysis of the deposited data

How the results depend on the processing

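The Cdh13 difference for E12.5 minus E11.5 passed under every alternative run. Of the tested differences of Cdh2, Cdh4, Cdh11, Cdh13 and Ajap1 none changed side of the threshold except Cdh13 for E12.5 minus E10.5, given above. Cdh20, Pcdh9 and the other list genes were run under no alternative. At the stricter −log10 q minimum of 5, 20 of the 232 member regions were left, 9 of them (45.0%) called by E12.5 lists alone, beside 21.0% of all regions, and 0 were gained or lost for E12.5 against E10.5 or E11.5. Keeping regions called by 2 or more lists left 63. Without 1 list in turn, E12.5 lists alone called 83 to 154 member regions, the lowest without E12.5 sample 2 (48.0%, beside 26.6% of all regions) and the highest without E11.5 sample 3 (73.0%, beside 53.3%), settings chosen after seeing the data. Gained member regions then numbered 4 to 26 for E12.5 against E10.5, 3 to 23 for E12.5 against E11.5, both highest without E12.5 sample 3, and 0 to 1 for E11.5 against E10.5. Lost ones numbered 0 to 2, 0 to 1 and 0 to 2 in the same order. Genes passing limma for E12.5 minus E10.5 numbered 1, against 9 at that minimum, 3 in equal-length lists, 8 with regions of 2 to 8 lists, 0 within 20 kb and 0 to 8 without 1 list (657 at an unadjusted p under 0.05). For E12.5 minus E11.5 they numbered 242, against 81, 47 and 107 under the first 3 of these, 110 for genes of 10 or more regions, and 36 to 243 without 1 list, the lowest without E11.5 sample 2. For E11.5 minus E10.5 they numbered 18, against 0, 0, 11 and 9 under these 4, 5 for genes of 10 or more regions, and 0 to 53 without 1 list, the highest without E11.5 sample 3. With the sample number as a replicate block the 3 numbers were 1, 250 and 22, and Cdh13 kept its call (limma, adjusted p = 5.393e-05); the numbers did not pair the lists. The cause of these shifts was not tested. Cdh2, Cdh11 and Ajap1 had too few regions for a value under some alternatives. Peak lists carry no counts, so a missing call cannot be told from low depth.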
